A study of Mus musculus with 6 samples.

Results

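The genes described here form the Hippo pathway and its YAP-TEAD readout in TCMK1, an epithelial line from mouse kidney tubules. They were taken by symbol from the deposited table of YOD1 overexpression against control. All 37 listed symbols were found among 28789 genes. Poly(A) RNA was sequenced from 6 libraries, all from cells treated with angiotensin II (Ang II): 3 control libraries and 3 with YOD1 overexpression. How YOD1 was introduced, whether the controls carried an empty vector, and whether the replicates came from separate cultures is not stated in the labels. The p-values thus cover the spread among the 6 libraries alone, and this spread may be technical. The series set out to find pathways that act downstream of YOD1 in this setting.

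The Hippo pathway is a kinase cascade. The MST kinases (Stk3, Stk4), with the scaffold SAV1, activate the LATS kinases and their MOB1 adaptors, and LATS phosphorylates the coactivators YAP (Yap1) and TAZ (Wwtr1), which keeps them out of the nucleus. Unphosphorylated YAP and TAZ bind TEAD transcription factors and switch on targets such as Ccn2 (formerly CTGF) and Ccn1 (formerly CYR61). In the kidney this programme is known for its link to tubular injury and fibrosis. YOD1 is a deubiquitinase known to act on ITCH, a ubiquitin ligase that marks LATS1 for degradation. These are events on proteins, which transcript levels do not measure.

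TEAD factors bind the core motif GGAATG, which reads CATTCC on the other strand. The motif was searched in RefSeq promoter windows (build GRCm38.p6) of 250 bases before to 50 bases after the start site, and 28 of the 37 members had a window. A match on either strand was present in 15 of the 28 (53.6%), against 4481 of 27025 genes with a window (16.6%). The list holds known YAP-TEAD targets by choice, so these shares are a description and no test. Several members had more than 1 window, and a match is only a run of letters. Itch, Stk3, Tead1, Tead4, Ccn2, Nuak2, Fjx1, Dock5 and Arhgef17 had no entry in the table. The 14 tested members with a match lay on both sides of zero, 6 above and 8 below, with a median log2 fold change of -0.07. The 9 tested members with a window and no match had 1 above zero, 8 below and a median of -0.21. These values were not corrected for transcript length and GC content. With that correction Amotl1 (0.06) and F3 (0.02), without a match, moved above zero. So did Mob1a (0.17) and Lats2 (0.12), with a match.

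The promoters of 5 members with a match are printed 5′ to 3′ on the strand of the gene, with the motif in capitals. Ajuba and Amotl2 encode feedback regulators of the pathway and stood among the members of highest fold change. Crim1, Ccn1 and Ankrd1 are YAP-TEAD targets that stood on both sides of zero. The windows lie at chr14:54577612-54577911 (minus strand, Ajuba), chr9:102717554-102717853 (plus strand, Amotl2), chr17:78199998-78200297 (plus strand, Crim1), chr3:145649936-145650235 (minus strand, Ccn1) and chr19:36119795-36120094 (minus strand, Ankrd1).
Ajuba: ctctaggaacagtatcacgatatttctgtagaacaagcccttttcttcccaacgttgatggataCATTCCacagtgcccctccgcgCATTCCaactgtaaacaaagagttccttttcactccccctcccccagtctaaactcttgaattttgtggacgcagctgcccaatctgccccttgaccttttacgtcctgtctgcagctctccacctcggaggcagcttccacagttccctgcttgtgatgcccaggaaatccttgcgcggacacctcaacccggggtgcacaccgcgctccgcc
Amotl2: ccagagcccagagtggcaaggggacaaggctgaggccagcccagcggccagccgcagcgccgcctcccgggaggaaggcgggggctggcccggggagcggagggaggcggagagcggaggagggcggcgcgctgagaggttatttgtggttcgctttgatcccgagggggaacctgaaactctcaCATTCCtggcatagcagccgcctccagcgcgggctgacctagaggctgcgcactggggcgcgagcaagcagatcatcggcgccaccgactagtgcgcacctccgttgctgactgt
Crim1: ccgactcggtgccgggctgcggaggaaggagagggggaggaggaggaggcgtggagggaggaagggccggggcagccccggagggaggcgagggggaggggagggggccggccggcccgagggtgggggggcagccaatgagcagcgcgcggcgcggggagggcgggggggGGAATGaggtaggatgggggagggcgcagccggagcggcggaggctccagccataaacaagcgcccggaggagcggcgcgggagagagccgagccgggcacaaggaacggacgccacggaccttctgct
Ccn1: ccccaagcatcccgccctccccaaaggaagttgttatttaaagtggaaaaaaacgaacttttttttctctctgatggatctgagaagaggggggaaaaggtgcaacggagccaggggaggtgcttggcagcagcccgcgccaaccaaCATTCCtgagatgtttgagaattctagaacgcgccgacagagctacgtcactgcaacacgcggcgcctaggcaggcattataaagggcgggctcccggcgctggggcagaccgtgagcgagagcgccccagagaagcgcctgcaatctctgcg
Ankrd1: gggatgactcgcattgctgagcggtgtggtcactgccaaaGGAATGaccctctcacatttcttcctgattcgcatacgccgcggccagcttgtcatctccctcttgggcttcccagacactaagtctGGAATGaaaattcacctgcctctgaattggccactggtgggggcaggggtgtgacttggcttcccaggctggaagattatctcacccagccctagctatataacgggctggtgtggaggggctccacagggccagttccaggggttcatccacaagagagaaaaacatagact
The first base of the match lay 186 and 164 bases before the start site in Ajuba, 65 in Amotl2, 79 in Crim1, 103 in Ccn1, and 210 and 123 in Ankrd1.

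Values are FPKM (fragment counts scaled to transcript length and to the mapped fragments of the library). This scaling allows only a rough comparison between genes, because a trend with transcript length remained between the libraries, as given below. Read depth is unknown from FPKM. The test was limma on log2(FPKM + 1) over the 11483 genes that reached 1 FPKM in 3 or more libraries, adjusted by Benjamini-Hochberg, and every fold change below is the YOD1 mean minus the control mean on that log2 scale unless a ratio is named. Of the 37 members, 32 passed the filter. Mob1b, Amot, Vgll3, Igfbp3 and Nt5e did not and were not tested. Yod1 stood at 0.842, 0.757 and 0.684 FPKM in the controls and at 1.73, 7.56 and 1.86 FPKM in the YOD1 libraries. The groups were apart, and the value of 7.56 FPKM lay far above the other YOD1 values. The log2 fold change of Yod1 was 1.21 (limma adjusted p = 0.141), and 1.51 after length and GC correction (limma adjusted p = 0.0757). Yod1 itself thus did not pass the test in either setting, so a gene that did not pass cannot be called unchanged. All 12 tubular epithelial markers listed passed the filter, and their summed level was 742 to 854 FPKM in the controls and 809 to 1064 FPKM in the YOD1 libraries. Fibroblast markers summed to 15.7 to 18.5 and 10.4 to 17.8 FPKM, leukocyte markers to 17.8 to 27.4 and 17.3 to 19.8 FPKM (mostly Cd68), endothelial markers to 0.847 to 1.53 and 1.52 to 2.42 FPKM, and podocyte markers to 4.82 to 6.68 and 5.18 to 6.09 FPKM. The leukocyte marker Ptprc reached at most 0.0708 FPKM, and Cd3e was listed at 0 in 5 libraries. The part of these markers in the results was not tested.

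By limma no member had an adjusted p under 0.05, where 55 of all tested genes did (0.479%, 51 higher and 4 lower). With median-ratio scaling of the libraries the split over all genes was 160 higher and 9 lower, and after correction for transcript length and GC content it was 26 and 7. The lowest adjusted p of a member was 0.111 (Ccn2). At an unadjusted p under 0.05 in limma there were 8 members, 4 higher and 4 lower, which is 25.0% of those tested against 20.9% of all tested genes. Ccn2, Ajuba, Amotl2 and Fjx1 were the 4 higher ones, and Sav1, Vgll4, Dock5 and Ptpn14 the 4 lower ones. The 3 YOD1 values lay above the 3 control values in 3 members (9.38%, against 9.77% of all tested genes) and below them in 8 members (25.0%, against 19.1%). These shares are near those of the whole table. In the authors' deposited table, whose test the labels do not name, Ccn2 (q = 0.0281) and Ajuba (q = 0.0499) had q under 0.05, as 1.97% of all listed genes did. The authors marked neither as significant.

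**Figure D1:**
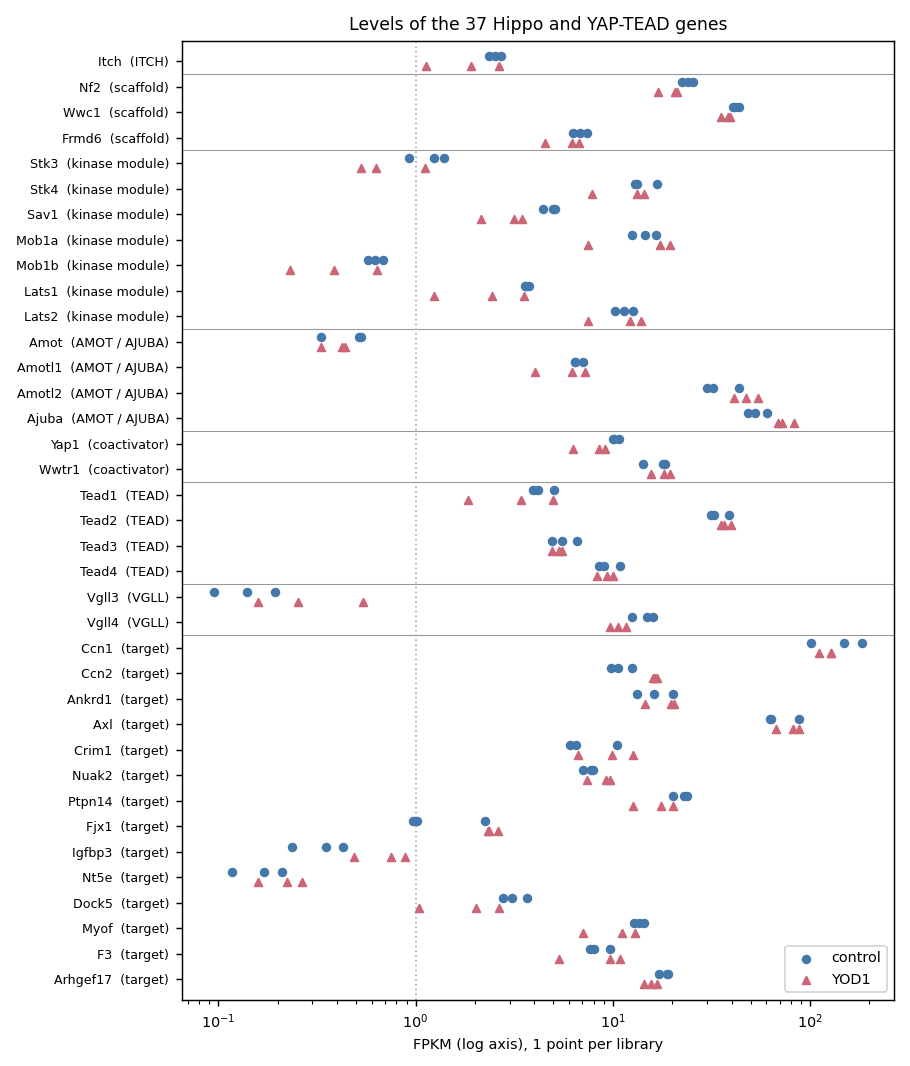
FPKM of each of the 37 genes in every library on a log axis, with control libraries as circles and YOD1 libraries as triangles, ordered by role; the dotted line is the filter at 1 FPKM. Ccn1, Axl, Ajuba, Wwc1, Amotl2 and Tead2 were the most abundant, and the circles and triangles of Ccn2 are apart while those of Ccn1 overlap.

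Itch stood at 2.71, 2.54 and 2.35 FPKM in the controls and at 1.91, 2.66 and 1.12 FPKM in the YOD1 libraries. The groups overlapped, and YOD1 library 3 was the lowest of all. The log2 fold change was -0.32 with a 95% interval of -0.78 to 0.14 (limma adjusted p = 0.371). It was -0.51 with YOD1 library 2 left out, -0.11 with library 3 left out and -0.03 after length and GC correction.

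The upstream scaffolds sit at the membrane and bring the kinases together. Nf2 encodes merlin, which recruits LATS, and stood at 22.4, 24.0 and 25.4 FPKM in the controls and at 21.0, 20.8 and 16.9 FPKM with YOD1. Wwc1 encodes KIBRA, a partner of merlin, and stood at 40.7, 41.6 and 43.7 FPKM against 39.4, 38.3 and 35.4 FPKM. In both genes every YOD1 value was below every control value, by small amounts: the ratios of means were 0.819 and 0.897. The log2 fold changes were -0.28 for Nf2 and -0.15 for Wwc1 (limma adjusted p = 0.264 and 0.444). After length and GC correction they were -0.11 and -0.01, and the groups overlapped. Frmd6, a FERM domain protein of the same layer, ranged from 4.52 to 7.42 FPKM with overlapping groups.

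All 6 tested genes of the core kinase module had a log2 fold change below zero, with a median of -0.31. Over all tested genes 7307 of 11483 lay below zero, with a median of -0.10. Length and GC correction, made within each library, gave a median of -0.10 for the module and -0.02 for all tested genes, with Mob1a (0.17) and Lats2 (0.12) above zero. Both were also above zero without YOD1 library 3. Sav1, the scaffold that holds the MST kinases, was the furthest from zero. It stood at 4.42, 4.95 and 5.06 FPKM in the controls and at 3.48, 3.16 and 2.15 FPKM in the YOD1 libraries, a ratio of means of 0.609. Every YOD1 value was below every control value. The log2 fold change was -0.58 with an SE of 0.18 and a 95% interval of -0.97 to -0.18 (limma adjusted p = 0.136). After length and GC correction it was -0.39 and the groups were still apart. Sav1 shares 1336 annotated exon bases with Atl1 on the opposite strand, a gene at 0.679 to 1.3 FPKM, and the labels do not state the library strand.

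Lats1, the kinase that ITCH targets, stood at 3.75, 3.57 and 3.65 FPKM in the controls and at 2.44, 3.56 and 1.24 FPKM with YOD1. The controls lay close together. YOD1 library 2 came near the control level, and YOD1 library 3 was the lowest of the 6. The log2 fold change was -0.51 with a 95% interval of -1.04 to 0.03 (limma adjusted p = 0.258). It was -0.74 with YOD1 library 2 left out, -0.23 with library 3 left out and -0.18 after length and GC correction, with overlapping groups in the latter. Lats2, the paralogue of Lats1 and itself a YAP target in many cells, stood higher, at 12.6, 10.3 and 11.4 FPKM in the controls and 12.2, 13.9 and 7.47 FPKM with YOD1. Its groups overlapped, with a log2 fold change of -0.06 and a 95% interval of -0.53 to 0.41 (limma adjusted p = 0.878). The value was 0.18 with YOD1 library 3 left out and -0.23 with library 2 left out.

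The MST kinase genes Stk3 (0.527 to 1.40 FPKM over the 6 libraries) and Stk4 (7.84 to 16.8 FPKM) had overlapping groups and log2 fold changes of -0.32 and -0.29. The MOB1 adaptors activate LATS. Mob1a stood at 12.5 to 16.6 FPKM in the controls and at 17.3, 19.5 and 7.45 FPKM with YOD1, so that 2 YOD1 libraries lay above the controls and 1 below them. Its log2 fold change was -0.07 with all libraries, 0.33 without YOD1 library 3 and -0.31 without YOD1 library 2. Mob1b, close to Mob1a in sequence, was listed at 0.232 to 0.686 FPKM, and reads that both genes share could have been split between them.

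The angiomotins hold YAP in the cytoplasm, and AJUBA binds LATS and restrains it. Ajuba (ENSMUSG00000022178) stood at 52.9, 48.7 and 60.7 FPKM in the controls and at 72.2, 83.2 and 68.6 FPKM in the YOD1 libraries. Every YOD1 value was above every control value. The means were 54.1 ± 6.1 and 74.7 ± 7.62 FPKM (SD, n = 3 each), and the log2 fold change was 0.46 with an SE of 0.13 (limma adjusted p = 0.130). Leaving out 1 library gave 0.38 to 0.54, and length and GC correction gave 0.52.

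Amotl2, a feedback regulator that YAP also induces in many cells, stood at 32.3, 30.0 and 43.7 FPKM in the controls and at 47.1, 54.6 and 41.2 FPKM with YOD1. Control 3 lay above YOD1 library 3, so the groups overlapped. Its log2 fold change was 0.43 with an SE of 0.17 (limma adjusted p = 0.202), and 0.58 after length and GC correction, where the groups were apart. Amotl2 and Ptpn14 are given in full because of their unadjusted p, a choice made after their values were seen. Amotl1 ranged from 4.04 to 7.26 FPKM with overlapping groups, and Amot from 0.333 to 0.528 FPKM. Amotl2 made up 81.6% to 85.2% of the summed angiomotin FPKM in the controls and 87.7% to 90.4% with YOD1. Amotl1 has a transcript of 8957 bp against 4427 bp for Amotl2, and these shares were not corrected for length.

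The coactivators stood on opposite sides of zero. Yap1 (ENSMUSG00000053110) stood at 10.7, 10.0 and 10.1 FPKM in the controls and at 8.49, 9.10 and 6.30 FPKM in the YOD1 libraries, with every YOD1 value below every control value. For Yap1 the log2 fold change was -0.35 with a 95% interval of -0.71 to 0.01 (limma adjusted p = 0.253). It was -0.44 with YOD1 library 2 left out, -0.20 with library 3 left out and -0.08 after length and GC correction. Wwtr1 (ENSMUSG00000027803) was the more abundant of the pair, at 17.9, 14.3 and 18.5 FPKM in the controls and 18.2, 19.5 and 15.6 FPKM with YOD1. Its groups overlapped, with a log2 fold change of 0.07 and a 95% interval of -0.27 to 0.41 (limma adjusted p = 0.801). With length and GC correction the value was 0.32 and the groups were apart.

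TEAD factors bring YAP and TAZ to DNA, and none of the 4 genes had groups that were apart. Tead2 was the most abundant, at 31.5 to 38.7 FPKM in the controls and 35.3 to 39.8 FPKM with YOD1, and made up 61.4% to 65.1% and 63.5% to 70.5% of the summed TEAD FPKM. Tead1 has a transcript of 9964 bp against 3396 bp for Tead2, and these shares were not corrected for length. Tead4 (8.36 to 10.9 FPKM over the 6 libraries) and Tead3 (4.91 to 6.60 FPKM) had log2 fold changes of -0.03 and -0.09. Tead1 stood at 3.92, 4.18 and 5.03 FPKM in the controls and at 3.41, 5.0 and 1.84 FPKM with YOD1. YOD1 library 2 lay at the level of the highest control and library 3 was the lowest of all. Its log2 fold change was -0.34 (limma adjusted p = 0.435), -0.60 without YOD1 library 2, -0.06 without YOD1 library 3 and -0.03 after length and GC correction.

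VGLL4 competes with YAP for TEAD and so opposes the programme. Vgll4 stood at 16.0, 15.0 and 12.5 FPKM in the controls and at 10.6, 11.7 and 9.64 FPKM with YOD1, with every YOD1 value below every control value. The difference was -0.41 on the log2 scale with an SE of 0.15 (adjusted p = 0.177 by limma). Any 1 library left out gave -0.50 to -0.34, and length and GC correction gave -0.41. Vgll3, a cofactor that also binds TEAD, was listed at 0.0951 to 0.194 FPKM in the controls and 0.158 to 0.544 FPKM with YOD1, below the filter.

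**Figure D2:**
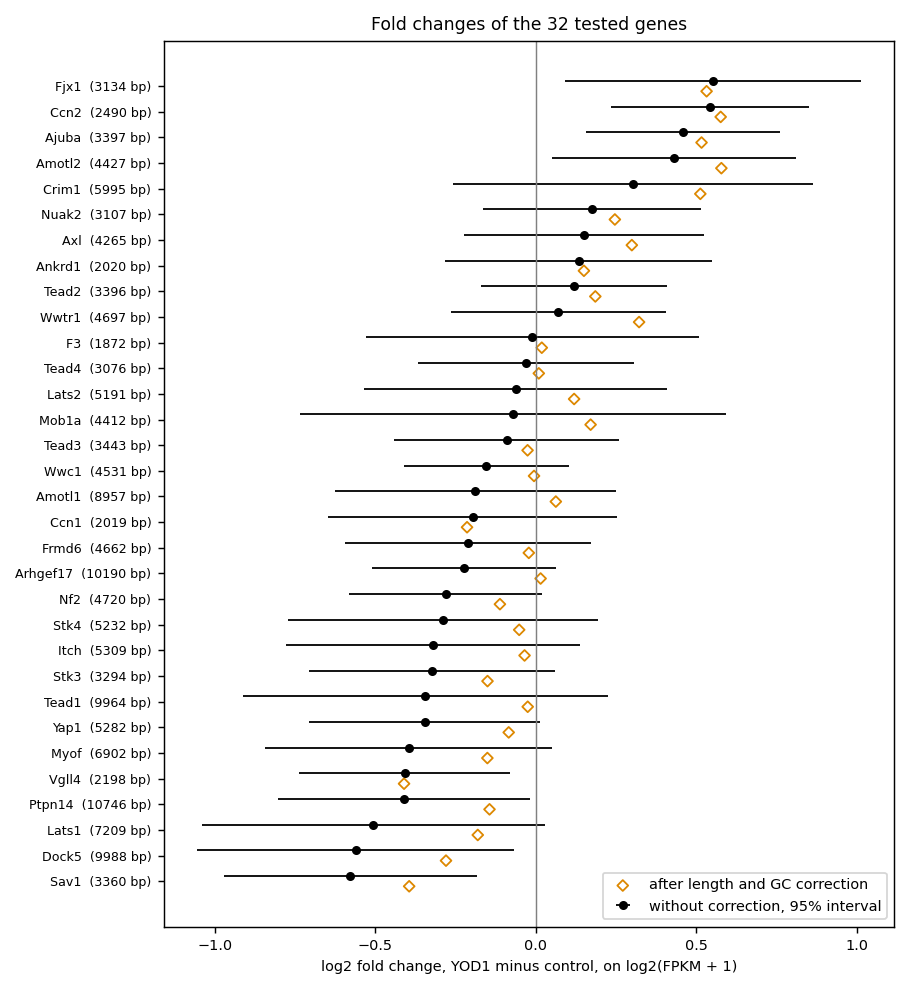
Log2 fold changes of the 32 tested genes on log2(FPKM + 1), YOD1 minus control, as black circles with 95% intervals from limma (not adjusted for the number of genes), and as open diamonds after length and GC correction; transcript lengths stand beside the names. Fjx1, Ccn2, Ajuba and Amotl2 have the highest values by either measure, and the diamonds of Itch, Yap1, Tead1 and Lats1 lie nearer to zero than their circles.

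The YAP-TEAD targets stood on both sides of zero: 6 of the 12 in the test lay above zero and 6 below with a median log2 fold change of 0.06. Over all tested genes 4176 of 11483 lay above zero, with a median of -0.10. After length and GC correction the medians were 0.08 for the targets and -0.02 for all tested genes. The CCN genes, which encode secreted matrix proteins and are the most used readouts of YAP activity, differed from each other. Ccn2 (ENSMUSG00000019997), a fibrosis-linked growth factor-binding protein, stood at 12.5, 10.6 and 9.75 FPKM in the controls and at 16.3, 16.0 and 16.7 FPKM in the YOD1 libraries. Every YOD1 value was above every control value, and the YOD1 values lay close together. The means were 10.9 ± 1.40 and 16.3 ± 0.351 FPKM (SD, n = 3 each), a ratio of 1.49, and the log2 fold change was 0.54 with an SE of 0.14 and a 95% interval of 0.23 to 0.85 (limma adjusted p = 0.111). Leaving out 1 library gave 0.47 to 0.63, and length and GC correction gave 0.58 (limma adjusted p = 0.0733, range over all alternatives 0.0621 to 0.334). Ccn2 shares 665 annotated exon bases with Gm15270 on the opposite strand, which was listed at no more than 0.0468 FPKM.

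Ccn1 (ENSMUSG00000028195) was the most abundant member, at 183, 149 and 101 FPKM in the controls and 128, 128 and 112 FPKM with YOD1. The controls spread widely around the YOD1 values. For Ccn1 the log2 fold change was -0.20 with a 95% interval of -0.65 to 0.25 (limma adjusted p = 0.583), and it ranged from -0.43 without control 3 to -0.0036 without control 1. Ankrd1, a nuclear ankyrin repeat protein, stood at 20.2, 13.3 and 16.2 FPKM in the controls and at 19.8, 20.4 and 14.5 FPKM with YOD1. Its groups overlapped, with a log2 fold change of 0.13 (95% interval -0.28 to 0.55, limma adjusted p = 0.691).

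Fjx1, a secreted relative of the fly protein four-jointed, stood at 0.969, 1.01 and 2.24 FPKM in the controls and at 2.33, 2.36 and 2.62 FPKM with YOD1. Every YOD1 value was above every control value, although control 3 came close to them. Control 1 lay under 1 FPKM, so Fjx1 met the filter only with YOD1 libraries, the group where it was higher. Its log2 fold change was 0.55 with an SE of 0.21 (limma adjusted p = 0.185), and 0.79 without control 3. Igfbp3, which binds insulin-like growth factors, also had groups that were apart (0.428, 0.237 and 0.353 against 0.487, 0.886 and 0.747 FPKM), but lay under the filter.

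Dock5, an exchange factor for Rac, stood at 2.78, 3.08 and 3.67 FPKM in the controls and at 2.02, 2.64 and 1.03 FPKM with YOD1. Every YOD1 value was below every control value, and the log2 fold change was -0.56 (limma adjusted p = 0.202). It was -0.75 with YOD1 library 2 left out, -0.33 with library 3 left out and -0.28 after length and GC correction. Arhgef17 stood at 17.1, 18.9 and 19.1 FPKM in the controls and at 14.4, 16.7 and 15.6 FPKM with YOD1, also without overlap. Its log2 fold change was -0.22 (limma adjusted p = 0.324) and 0.02 after length and GC correction. Ptpn14, a phosphatase that binds YAP, stood at 20.3, 23.8 and 22.9 FPKM in the controls and at 17.5, 20.3 and 12.6 FPKM with YOD1. Its highest YOD1 value was just above the lowest control value, and the log2 fold change was -0.41 (limma adjusted p = 0.226), with -0.55 without YOD1 library 2, -0.23 without YOD1 library 3 and -0.14 after length and GC correction. The other tested targets had overlapping groups: the receptor tyrosine kinase Axl (62.9 to 88.3 FPKM over the 6 libraries), the transmembrane protein Crim1 (6.09 to 12.7 FPKM), the kinase Nuak2 (7.07 to 9.63 FPKM), the membrane repair protein Myof (7.09 to 14.4 FPKM) and tissue factor, F3 (5.36 to 10.9 FPKM). Their log2 fold changes ran from -0.40 (Myof) to 0.30 (Crim1). Nt5e, the ecto-enzyme CD73, was listed at 0.117 to 0.266 FPKM.

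The values of the members were lowest in YOD1 library 3 and, there, in the long transcripts. Library 3 was the lowest of the 6 in 18 of 32 tested members (56.3%), against 42.5% of all tested genes. Relative to the control mean, the median over the tested members was -0.09, 0.05 and -0.49 in YOD1 libraries 1, 2 and 3, and over all tested genes it was -0.06, -0.04 and -0.18. Without YOD1 library 3 the median log2 fold change of the members was -0.05 and without YOD1 library 2 it was -0.25, against -0.17 with all libraries. The members have long transcripts, with a median of 4479 bp against 3018.5 bp over all tested genes. In the 12 members of at least 5000 bp the median was -0.28, -0.01 and -0.75 in the 3 YOD1 libraries, and in the 20 shorter ones it was 0.15, 0.14 and -0.13. Over all tested genes of at least 5000 bp it was -0.22, -0.06 and -0.51, and over all shorter ones -0.02, -0.03 and -0.10. Among the 12 long members 11 had a log2 fold change below zero, against 11 of the 20 shorter ones. The median log2 fold changes were -0.33 and -0.02, and over all tested genes of these lengths -0.27 and -0.06.

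**Figure D3:**
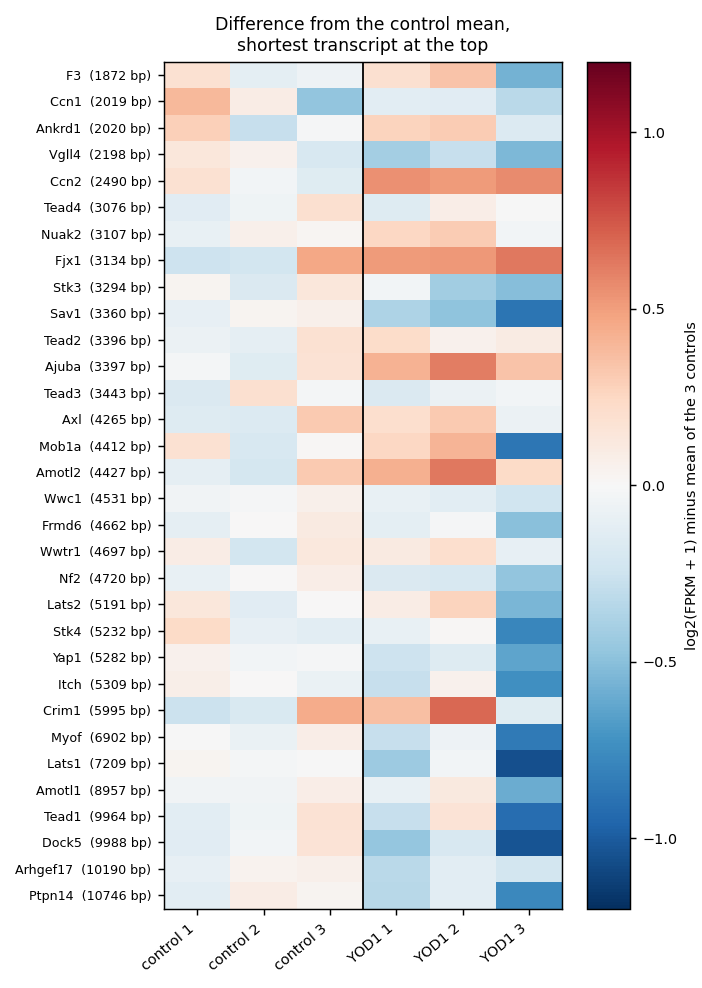
Difference of each tested gene from the mean of the 3 controls on log2(FPKM + 1), by library, with the shortest transcript at the top (blue lower, red higher). YOD1 library 3 is blue for most genes and darkest towards the long transcripts, while Ccn2, Fjx1, Ajuba and Amotl2 are red in all 3 YOD1 libraries.

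Across the 32 members, which share libraries and are not independent, the Spearman correlation of the log2 fold change with length was -0.47, and across all tested genes with a known length it was -0.40. After correction of each library for length and GC content the members split evenly, 16 above zero and 16 below, with a median of 0.002 in place of -0.17. The groups were then apart in 5 members with YOD1 higher (Ccn2, Fjx1, Ajuba, Amotl2 and Wwtr1) and in 5 with YOD1 lower (Sav1, Vgll4, Dock5, Ptpn14 and Yap1). Each count is 15.6% of the members, against 14.0% and 15.0% of all genes in that setting. The part of RNA quality or library preparation in the trend was not tested.

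**Figure D4:**
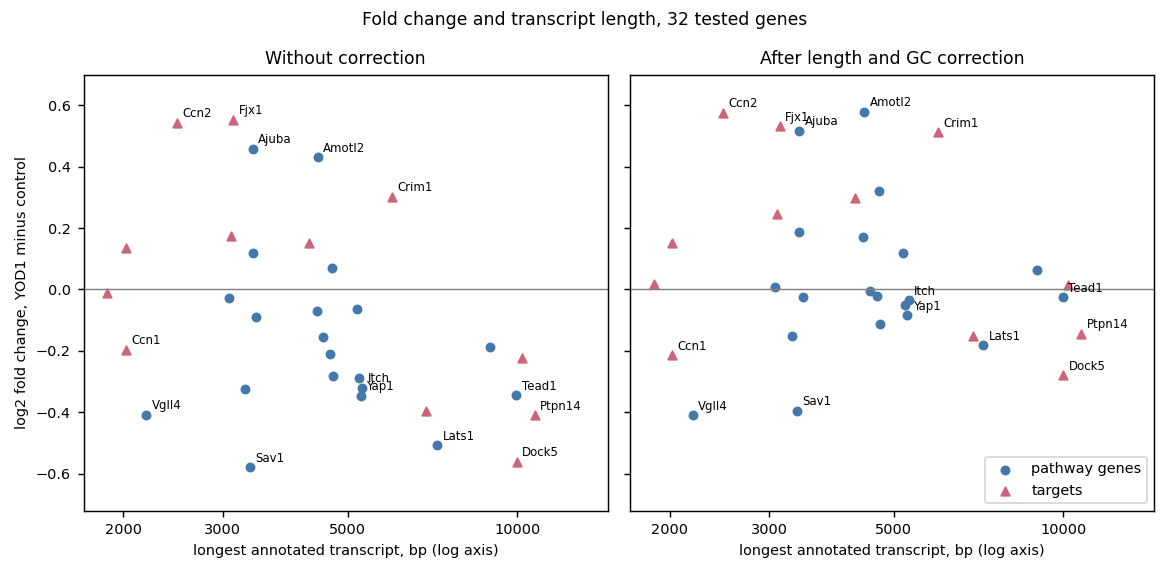
Log2 fold change of the 32 tested genes, YOD1 minus control, against the length of the longest annotated transcript (log axis), without correction on the left and after length and GC correction on the right, with targets as triangles and other members as circles. On the left 11 of the 12 genes of at least 5000 bp lie below zero, and on the right Ccn2, Fjx1, Ajuba, Amotl2 and Crim1 stand highest and Vgll4 and Sav1 lowest.

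A wider list of 58 symbols of Hippo regulators outside the members had 54 in the table, of which 48 were tested. None passed the limma test, and 13 had an unadjusted p under 0.05 (27.1%, against 20.9% of all tested genes). In 39 of the 48 the log2 fold change was below zero, with a median of -0.22. Over all tested genes 7307 of 11483 were below zero, with a median of -0.10. Their groups were apart with YOD1 lower in 20 (41.7%, against 19.1% of all tested genes) and higher in 3 (6.25%, against 9.77%). The correction for length and GC changed these counts to 11 (22.9%, against 15.0%) and 4 (8.33%, against 14.0%). The median was then -0.02, as over all tested genes, and 23 of the 48 were above zero. The lowest p among the lower ones belonged to Rassf6 (log2 fold change -0.60) and Rassf3 (-0.60), of the RASSF family of MST-binding proteins, and the kinase Map4k2 (-0.45), with limma adjusted p of 0.115, 0.118 and 0.128. Among the higher ones it belonged to Wtip (0.51), a LIM protein related to AJUBA, to Snai1 (0.51), an EMT transcription factor, and to Rassf1 (0.32), with limma adjusted p of 0.114, 0.133 and 0.297. Wtip stood at 14.3, 15.0 and 14.3 FPKM in the controls and at 21.4, 18.8 and 23.3 FPKM with YOD1, with the groups apart. After length and GC correction its log2 fold change was 0.14.

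A second list, of 31 YAP-TEAD targets outside the members, had 30 in the table and 21 tested. Of these 11 were above zero and 10 below, with a median of 0.09, against -0.10 over all tested genes (4176 of 11483 above zero). The median of the list was -0.05 without YOD1 library 2, -0.07 with the filter at 5 FPKM (6 of 16 above zero) and 0.02 without a filter. None passed the limma test and 4 had an unadjusted p under 0.05 (19.0%, against 20.9% of all tested genes). The groups were apart with YOD1 higher in 3 (14.3%, against 9.77%) and lower in 1 (4.76%, against 19.1%). With length and GC correction the counts were 7 (33.3%, against 14.0% of all genes) and 1 (4.76%, against 15.0%). The median was then 0.26, against -0.02 over all tested genes. Areg and Edn1, among the 3 higher ones, and Jag1 and Itgb2, also among the 7, had fewer than 3 controls at 1 FPKM. They met the filter only with YOD1 libraries, the group where they were higher. The counts of higher targets are thus a description and no support for a rise. Areg, an EGF receptor ligand, stood at 0.691, 0.490 and 1.32 FPKM in the controls and at 1.62, 2.14 and 1.58 FPKM with YOD1 (log2 fold change 0.62, limma adjusted p = 0.140). Anxa3 (0.42) and Gadd45b (0.41) followed among the higher ones, and Anxa1 (-0.43), Birc5 (-0.25) and Asap1 (-0.29) had the lowest p among the lower ones, with limma adjusted p from 0.206 to 0.345 for these 5 genes.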

How the data were processed

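Poly(A) RNA of 6 libraries was measured in 2 groups of 3, taken from the sample titles. The authors deposited 1 table with FPKM per gene and library, per the file headers, beside their own fold ratio between the groups (also as log2) and the p-value and q-value of their test. Build mm8 and the tools Bowtie 0.12.2, HISAT2 2.0 and StringTie 1.3.0 appear in the submitters' processing notes without a role. Neither read depth nor the test of the authors is stated. The table holds no counts, so no count-based test was run, and 0 columns of per-sample values were left unused.

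The 11483 genes that reached 1 FPKM in 3 or more libraries were fitted by limma 3.58.1 (R 4.3.3) on log2(FPKM + 1), with an intensity trend, two-sided, adjusted by Benjamini-Hochberg over all of them at 0.05. This scale understates changes of low genes. The code was tested on simulated data. Transcript lengths and GC content came from the longest listed transcript in GENCODE M21, matched by identifier (37 of 37 members, 99.2% of tested genes), and trends were removed per library by splines with 4 degrees of freedom. Exons of 8 members overlap another gene in that annotation.

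The members, lists and alternatives were chosen with earlier results of these data known. Full values were given for 9 core genes, for tested members whose groups did not overlap and for those whose log2 fold change was 0.5 or more in size. From each wider list the 3 genes of lowest p per direction were named. The alternatives were no filter, a filter at 5 FPKM, the replicate number as a block, 0.1 as pseudocount, median-ratio scaling, length and GC correction, and each library left out. Numbers were computed with Python 3.11.15, pandas 2.3.3 and scipy 1.17.1.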

Additional observations from a re-analysis of the deposited data

How the results depend on the processing

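No tested member passed the limma test under the 12 alternatives, of which the filter at 5 FPKM tested 25 of the 32 (not Itch, Stk3, Sav1, Lats1, Tead1, Fjx1 and Dock5), while the number of genes called over the whole table went from 55 to 0 without a filter, 169 with median-ratio scaling, 33 after length and GC correction, and 19 (without control 2) to 242 (without control 3) when 1 library was left out. It was 31 without control 1 and 132 without YOD1 library 3. With the replicate number as a block 41 genes were called, and no member. Deviations of same-numbered libraries correlated at 0.30, -0.12 and -0.11. With 3 libraries per group this cannot show whether the numbers pair the samples, and the labels do not say. Not every library correlated best with its own number. Of the 32 tested members 23 kept the sign of their fold change in each alternative that gave them a value. Length and GC correction moved the median of the other Hippo genes to -0.015 and of the other targets to 0.258. It reversed Mob1a (0.171), Lats2 (0.12), Amotl1 (0.063), Tead4 (0.0095), F3 (0.019) and Arhgef17 (0.015). Median-ratio scaling, which moved the median of all genes from -0.10 to -0.008, reversed Mob1a (0.031), Lats2 (0.038), Tead3 (0.0030), Tead4 (0.071) and F3 (0.087). When 1 library was left out the value lay between -0.312 and 0.328 for Mob1a, -0.229 and 0.18 for Lats2, -0.342 and 0.015 for Amotl1, -0.040 and 0.157 for Wwtr1, -0.176 and 0.0049 for Tead3, -0.096 and 0.065 for Tead4, -0.0054 and 0.282 for Ankrd1, and -0.188 and 0.266 for F3. The cause of these changes was not tested. Dropping a library also leaves fewer samples for the test. Read depth is unknown, so the precision of low genes such as Igfbp3 and Vgll3 cannot be given.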

Other observations

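Ratios of related members within a library, computed after the values were seen, were apart between the groups in 5 of 7 pairs. The share among other gene pairs was not computed. Of single tested genes 9.77% had groups apart with YOD1 higher and 19.1% with YOD1 lower. A ratio is another measure, so these shares are no background for it, and 5 of 7 cannot be called high or low. The denominator had the longer transcript in all pairs but Ccn2 to Ccn1 and Stk4 to Stk3. The ratio of Wwtr1 to Yap1 (TAZ to YAP) was 1.68, 1.43 and 1.82 in the controls and 2.14, 2.14 and 2.47 in the YOD1 libraries. The ratio of Ccn2 to Ccn1 was 0.0682, 0.0713 and 0.0965 against 0.128, 0.125 and 0.149, although Ccn1 alone had overlapping groups. Amotl2 to Amotl1 was 5.04, 4.67 and 6.19 against 7.63, 7.53 and 10.2, Lats2 to Lats1 was 3.35, 2.88 and 3.13 against 4.99, 3.92 and 6.0, and Mob1a to Mob1b was 28.8, 18.2 and 23.5 against 45.0, 30.6 and 32.2. Each of the 5 had an exact two-sided permutation p of 0.1, the smallest that 3 against 3 libraries can give, or 0.14 adjusted over the 7 pairs. Any pair without overlap gets this p. The pairs were picked with the values known, so neither p measures an error rate. Stk4 to Stk3 and Tead2 to Tead1 overlapped (exact permutation p = 0.4 each). After length and GC correction the difference of the log2 values was 0.41 for Wwtr1 and Yap1, 0.79 for Ccn2 and Ccn1 and 0.52 for Amotl2 and Amotl1, with the groups apart. It was 0.30 for Lats2 and Lats1, with overlap. Mob1b lay under the filter, so its pair with Mob1a had no corrected value.

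Relatives of Itch in the NEDD4 family of ubiquitin ligases, named after their values were seen, differed in size. Nedd4 stood at 33.7, 31.5 and 28.7 FPKM in the controls and at 19.7, 24.1 and 11.3 FPKM with YOD1, with the groups apart, and its log2 fold change was -0.80 (limma adjusted p = 0.130), or -0.54 after length and GC correction. Nedd4l, Wwp1 and Wwp2 had log2 fold changes of -0.23, -0.22 and -0.09, and 0.08, 0.10 and 0.06 after the correction.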
